A study of Mus musculus with 4 samples.

Results

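The 9 genes described here encode core enzymes of the methionine cycle and of one-carbon metabolism: Mat1a, Mat2a, Mat2b, Gnmt, Ahcy, Mtr, Cbs, Shmt1 and Shmt2. They were chosen by symbol out of 38293 gene rows, with Mat1a already known to be higher in AXL KO tumours in these same libraries. RNA sequencing covered mammary tumours of MMTV-Neu mice of the FVB strain, with 2 libraries from mice without AXL (AXL KO) and 2 from wild-type mice (WT). All 4 libraries thus came from tumours with the Neu (Erbb2) oncogene, which the mouse mammary tumour virus promoter drives mainly in mammary epithelium. The knockout is labelled for the whole genotype with no cell type named. The Axl gene encodes a TAM receptor tyrosine kinase. Nothing in the labels says that the libraries came from separate animals, so the errors and p-values cover no more than the scatter of these libraries, which may be technical. AXL KO replicate 2 carries another run code in its label than the other 3 libraries.

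Methionine adenosyltransferase joins methionine and ATP into S-adenosylmethionine (SAM), the methyl donor of most cellular methylation reactions. Each methyl transfer leaves S-adenosylhomocysteine, which AHCY splits into adenosine and homocysteine. Homocysteine is either methylated back to methionine by methionine synthase, with a methyl group from the folate cycle, or passed by cystathionine beta-synthase into cysteine synthesis. Serine hydroxymethyltransferases load the folate cycle with one-carbon units from serine. Mat1a is the form of adult liver, whereas Mat2a, with the regulatory subunit encoded by Mat2b, serves most other tissues and growing cells.

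Reads in genes numbered 19161051 and 33131739 in AXL KO replicates 1 and 2 and 21276336 and 18929743 in WT replicates 1 and 2, so 1 read was worth between 0.0300 and 0.0534 CPM (counts scaled to one common library size with TMM factors). Axl itself had 4.75 and 4.89 CPM in the AXL KO libraries, against 61.8 and 35.2 CPM in the WT libraries. The mammary epithelial genes Krt8, Krt18, Epcam and Erbb2 were between 529 and 19975 CPM in every library. WT replicate 2 stood apart from the other libraries. Its 10 hypoxia genes summed to 2036 CPM, its 10 proliferation genes to 1200.4 CPM and its 10 interferon response genes to 72.3 CPM, against 702 to 906, 427 to 650.0 and 1091 to 1628 CPM in the other 3 libraries. Where a difference below shrank or turned without WT replicate 2, that value is given too, and its relation to these 3 gene groups was not tested.

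Mat1a was higher in both AXL KO libraries than in both WT libraries, while Mat2a and Mat2b lay at similar levels in all 4. Mat1a (ENSMUSG00000037798; GRCm38 chromosome 14, 41105035 to 41124412, plus strand) encodes the liver-type catalytic subunit. It had 82 and 119 counts in AXL KO replicates 1 and 2, against 2 and 10 counts in WT replicates 1 and 2, which is 4.38 and 3.57 CPM against 0.0935 and 0.524 CPM. The groups did not overlap: the nearest libraries were 3.05 CPM apart, against 0.811 CPM between the AXL KO libraries and 0.430 CPM between the WT libraries. The exact 95% Poisson intervals, which cover counting error only, were 3.48 to 5.44 and 2.96 to 4.27 CPM in the AXL KO libraries and 0.0113 to 0.338 and 0.251 to 0.963 CPM in the WT libraries. Mat1a averaged 3.97 ± 0.573 CPM in AXL KO and 0.309 ± 0.304 CPM in WT (SD, n = 2 each), a log2 difference of 3.70 with a standard error of 0.71 in edgeR's fit. These values chose the gene, so no test is given for it. Where a level is lower in such bulk tissue, fewer cells of a type and less RNA per cell cannot be told apart. The size of the difference depended on both WT libraries: the log2 difference was 5.32 without WT replicate 2, which leaves WT replicate 1 with its 2 counts, and 2.91 without WT replicate 1. Among the 3 libraries that share a run code, which leaves out AXL KO replicate 2, it was 3.82.

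Mat2a (ENSMUSG00000053907; chromosome 6, 72432799 to 72439558, minus strand) encodes the catalytic subunit of tissues outside the liver. It was at 182 and 154 CPM in AXL KO replicates 1 and 2, against 203 and 163 CPM in WT replicates 1 and 2. The groups overlapped, with a log2 difference of −0.12 (SE 0.20) that ran from −0.27 to 0.05 with 1 library left out. Mat2b (ENSMUSG00000042032; chromosome 11, 40679314 to 40695203, minus strand), the regulatory subunit gene, was at 121 and 102 CPM in AXL KO, against 105 and 115 CPM in WT. Its groups overlapped too, with a log2 difference of 0.02 (SE 0.18), and its highest library was 1.18 times its lowest. Exons of Mat2a share 508 bases with Particl on the other strand, and the strand setting of the counting is not given in the sources used here.

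The coding sequences of Mat1a and Mat2a were compared to see whether reads of one could be taken for the other. Over 1185 aligned bases 73.5% were identical, and the longest run without a difference was 15 bases. Shown are the 120 coding bases in which the pair is most alike, 5′ to 3′ on the coding strand from the GENCODE M21 transcripts, with the 20 bases that differ in capitals.
Mat1a coding bases 298 to 417: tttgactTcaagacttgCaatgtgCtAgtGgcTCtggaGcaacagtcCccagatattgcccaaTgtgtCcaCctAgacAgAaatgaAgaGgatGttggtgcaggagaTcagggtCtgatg
Mat2a coding bases 295 to 414: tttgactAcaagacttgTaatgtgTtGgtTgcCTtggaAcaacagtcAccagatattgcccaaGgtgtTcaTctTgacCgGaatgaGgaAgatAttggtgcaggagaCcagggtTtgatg
Even in this stretch the differences are spread along the sequence. A 3468-base exon length for Mat1a and 4486 bases for Mat2a were used to compare their levels.

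Mat2a transcripts outnumbered Mat1a transcripts in all 4 libraries, by a smaller factor in the AXL KO pair. Per exon length Mat2a was 32.2 and 33.4 times Mat1a in AXL KO replicates 1 and 2, against 1676 and 241 times in WT replicates 1 and 2. As a share of the counts of both genes, Mat1a made up 2.34% (exact 95% binomial interval 1.87 to 2.90) and 2.26% (1.88 to 2.70) in the AXL KO libraries. In the WT libraries it made up 0.0461% (0.00559 to 0.166) and 0.320% (0.154 to 0.588). The AXL KO libraries lay close together and their intervals did not reach those of the WT libraries, while the intervals of the 2 WT libraries met. These intervals cover counting error only. The gap between the groups is no separate support, since Mat1a was chosen on the same counts. The log2 ratio of Mat1a to Mat2a per length averaged −5.04 ± 0.0371 in AXL KO and −9.31 ± 1.98 in WT (SD, n = 2 each), a difference of 4.28 that is a description, since Mat1a entered on this contrast. It was 2.88 without WT replicate 1 and 5.68 without WT replicate 2. Mat2b stood at 0.595 and 0.596 times Mat2a per length in AXL KO, against 0.465 and 0.635 times in WT.

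**Figure D1:**
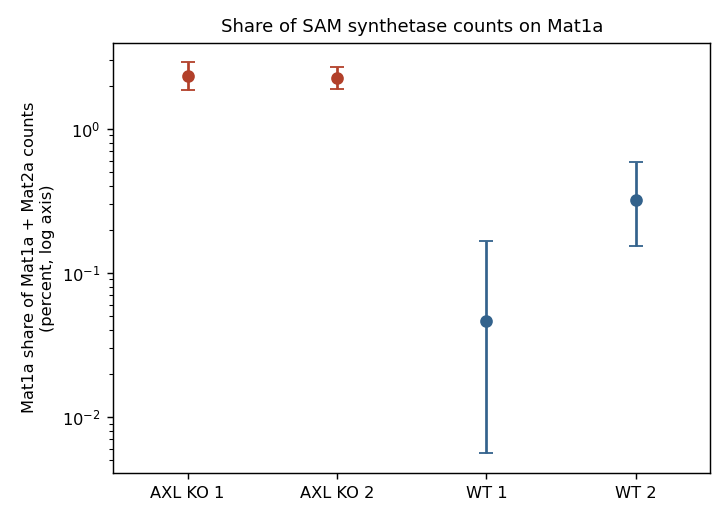
Share of Mat1a among the counts of Mat1a and Mat2a (percent, log axis) in each library, AXL KO at the left and WT at the right, with exact 95% binomial intervals for counting error as bars. The AXL KO libraries sit at 2.34% and 2.26%, above 0.0461% and 0.320% in the WT libraries.

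Gnmt and Ahcy, which use SAM and clear its product, were both highest in WT replicate 2. Gnmt (ENSMUSG00000002769; chromosome 17, 46725664 to 46729168, minus strand) encodes glycine N-methyltransferase, an abundant liver enzyme that disposes of excess SAM by methylating glycine to sarcosine. It had 15 and 18 counts in AXL KO, against 7 and 28 counts in WT, or 0.801 and 0.540 CPM against 0.327 and 1.47 CPM. The WT libraries lay on both sides of the AXL KO libraries. The log2 difference was −0.43 (SE 0.81), and it was 0.97 without WT replicate 2 and −1.16 without WT replicate 1.

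Ahcy (ENSMUSG00000027597; chromosome 2, 155059310 to 155074497, minus strand), the gene of S-adenosylhomocysteine hydrolase, was at 15.9 and 17.1 CPM in AXL KO, against 15.9 and 33.9 CPM in WT. WT replicate 2 was 2.08 times the mean of the other 3 libraries, which lay between 15.9 and 17.1 CPM. The log2 difference was −0.59 (SE 0.40) with all libraries and 0.05 without WT replicate 2. Ahcy counts are uncertain, because the annotation holds near-identical copies. The coding sequence of Gm4737, on chromosome 16, differs from that of Ahcy at 4 of 1299 bases, with 575 identical bases in a row, and the pseudogene Gm9826 matched Ahcy at 99.2% over 1299 bases. Shown are the 120 coding bases where Ahcy and Gm4737 differ most, from the GENCODE M21 transcripts, with the 2 differing bases in capitals.
Ahcy coding bases 355 to 474: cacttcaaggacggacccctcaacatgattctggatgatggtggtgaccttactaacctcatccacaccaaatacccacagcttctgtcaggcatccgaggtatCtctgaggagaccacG
Gm4737 coding bases 355 to 474: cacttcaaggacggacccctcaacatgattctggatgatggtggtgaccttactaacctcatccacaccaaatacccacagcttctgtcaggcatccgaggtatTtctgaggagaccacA
Gm4737 was counted at 12.6 and 11.2 CPM in AXL KO, against 9.49 and 23.1 CPM in WT, and Gm9826 had at most 1 count in a library. Ahcy and Gm4737 together came to 28.5 and 28.3 CPM in AXL KO, against 25.4 and 57.1 CPM in WT. The higher level in WT replicate 2 was thus present in the sum as well, and Ahcy made up between 55.9% and 62.6% of it in every library.

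Mtr (ENSMUSG00000021311; chromosome 13, 12182712 to 12258113, minus strand) encodes methionine synthase, which remethylates homocysteine with cobalamin as cofactor. It was at 17.4 and 18.5 CPM in AXL KO, against 16.7 and 11.8 CPM in WT. The AXL KO libraries were the 2 highest, by 0.666 CPM at the nearest pair, a gap narrower than the 4.91 CPM between the WT libraries. The log2 difference was 0.33 (SE 0.28), and 0.10 without WT replicate 2. Cbs (ENSMUSG00000024039; chromosome 17, 31608894 to 31637238, minus strand), the gene of cystathionine beta-synthase, had 4 and 6 counts in AXL KO, against 1 and 8 counts in WT. That is 0.214 and 0.180 CPM against 0.0468 and 0.419 CPM, too few for the low-count filter, and the exact 95% intervals of all 4 libraries overlapped. A difference between the groups in Cbs was not detectable at this depth.

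Shmt1 and Shmt2, which move one-carbon units from serine onto folate in the cytosol and in mitochondria, varied 1.45-fold and 1.199-fold between their highest and lowest library. Shmt1 (ENSMUSG00000020534; chromosome 11, 60788104 to 60811718, minus strand) was at 47.9 and 67.1 CPM in AXL KO, against 58.1 and 69.6 CPM in WT, with a log2 difference of −0.15 (SE 0.24), and −0.02 without WT replicate 2. Its groups overlapped, and AXL KO replicate 1 was lowest. The Shmt1 difference was 0.07 without AXL KO replicate 1 and −0.43 without AXL KO replicate 2. Shmt2 (ENSMUSG00000025403; chromosome 10, 127517123 to 127522444, minus strand) was at 57.2 and 60.9 CPM in AXL KO, against 68.6 and 63.8 CPM in WT, with a log2 difference of −0.17 (SE 0.17). The AXL KO libraries were the 2 lowest, but the nearest pair across groups was 2.94 CPM apart while the AXL KO libraries differed by 3.68 CPM and the WT libraries by 4.77 CPM. Per exon length Shmt2 was 1.49 and 1.13 times Shmt1 in AXL KO, against 1.47 and 1.146 times in WT, so replicate 1 of both groups had the larger ratio. Exons of Shmt1 and Shmt2 share 184 and 32 bases with Smcr8 and Ndufa4l2 on the other strand.

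**Figure D2:**
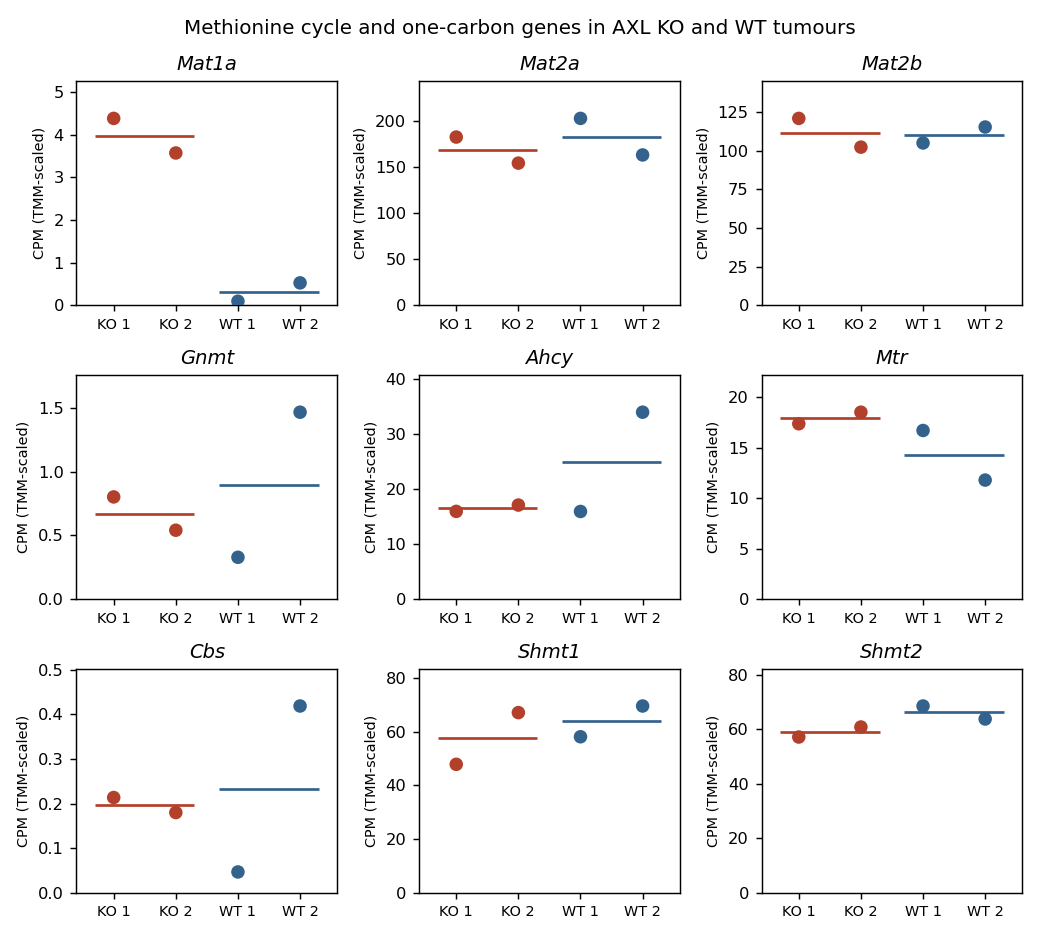
Level of each of the 9 genes (CPM with TMM factors, linear axis from 0) in each library, AXL KO replicates 1 and 2 at the left and WT replicates 1 and 2 at the right, with group means as lines. Mat1a is high in both AXL KO libraries, Gnmt, Ahcy, Cbs and Shmt1 are highest in WT replicate 2, and Mat2b and Shmt2 differ least between libraries.

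The order of levels among the 9 genes was set by RPKM, here CPM per kilobase of exons of the gene. Mat2a was highest, with 34.4 to 45.2 RPKM over the 4 libraries. Mat2b (20.5 to 24.2) and Shmt2 (18.4 to 22.1) followed with ranges that overlapped. Shmt1 (12.3 to 17.9), Ahcy (5.67 to 12.1) and Mtr (1.38 to 2.17) came next, each with a range below that of the gene before it. Gnmt (0.271 to 1.22), Mat1a (0.0270 to 1.26) and Cbs (0.00625 to 0.0560) were lowest, and neighbours among these 3 overlapped. Mat1a was above Gnmt in both AXL KO libraries, at 1.26 and 1.03 RPKM against 0.664 and 0.448, and below it in both WT libraries, at 0.0270 and 0.151 RPKM against 0.271 and 1.22. By mean RPKM 19.8% of the genes tested lay below Mat1a in AXL KO and 1.19% in WT, while 91.1% lay below Mat2a in AXL KO and 92.0% in WT.

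Of the 9 genes, 8 passed the low-count filter and Cbs did not. Mat1a reached its place among them through the AXL KO libraries, since its WT counts were 2 and 10. Over all 14330 genes tested, edgeR's quasi-likelihood test with Benjamini-Hochberg adjustment called 0 (0%) at 0.05, with 314 genes (2.19%) at an unadjusted p under 0.05, DESeq2 called 16 and limma-voom 0. None of the 9 was therefore among edgeR's calls and 1, Mat1a, was among DESeq2's, and nothing is read from either, since the genes were chosen on this contrast. The groups did not overlap for 3 of the 9, with AXL KO above WT for Mat1a and Mtr and below it for Shmt2. Over all genes tested the share without overlap was 29.2%, made up of 14.7% above and 14.5% below. Beside Mat1a, the log2 differences of the tested genes ran from −0.59 to 0.33, where the median size over all tested genes was 0.20.

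**Figure D3:**
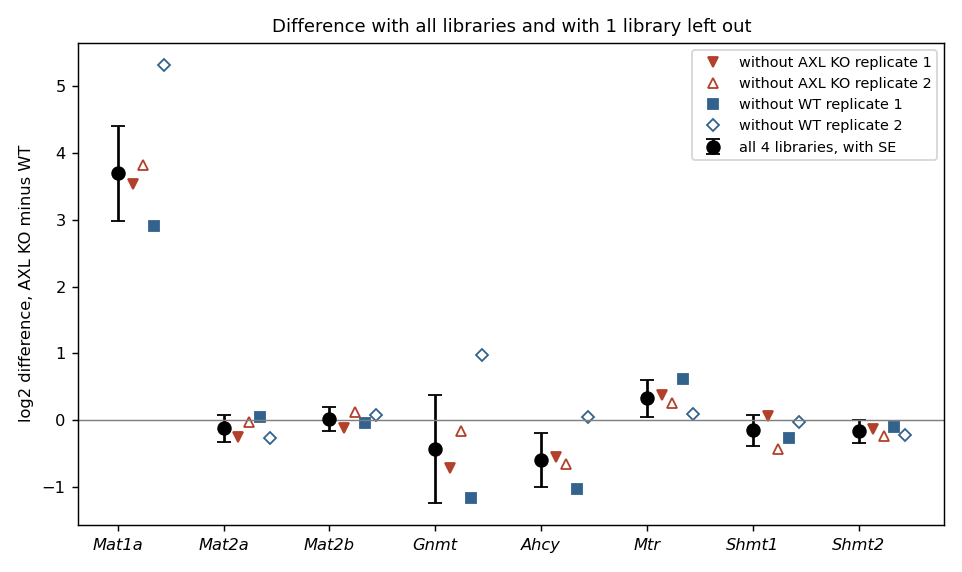
Log2 difference, AXL KO minus WT, of the 8 genes that passed the low-count filter, with all libraries (black, bars are SE) and with each library left out. Mat1a runs from 2.91 to 5.32, and could not change sign because its groups did not overlap. Gnmt runs from −1.16 to 0.97 and Ahcy from −1.03 to 0.05.

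Gnmt, Ahcy and Cbs shared their highest library, WT replicate 2, at 2.64, 2.08 and 2.85 times the mean of the other 3 libraries. Shmt1 was highest there too, as were 34.6% of all genes tested. Gnmt, Ahcy and Cbs were each lowest in WT replicate 1, where Ahcy was all but level with AXL KO replicate 1. The hypoxia and proliferation sums were also highest in WT replicate 2, and the interferon response sum was lowest there. Among the hypoxia genes Ndrg1 was at 8.44 and 9.96 CPM in AXL KO, against 12.1 and 275 CPM in WT. The relation of these sums to the 3 genes was not tested. The shared order does not extend to the AXL KO pair. There Ahcy was higher in replicate 2, and Gnmt and Cbs in replicate 1. The Cbs levels lay within counting error. For Gnmt the exact Poisson interval of WT replicate 1, 0.132 to 0.674 CPM, met those of both AXL KO libraries. That of WT replicate 2, 0.974 to 2.12 CPM, met AXL KO replicate 1 (0.448 to 1.32 CPM) but not AXL KO replicate 2 (0.320 to 0.853 CPM). Counting error thus left the lowest library open for Gnmt and Cbs. The promoters of the 3 genes are shown because their measured levels had the same highest and lowest library, although the lowest was not resolved. How often WT replicate 1 was lowest over all genes tested is not given here. Each is 300 bases from RefSeq (GRCm38.p6), 250 before the transcription start to 50 after, 5′ to 3′ on the minus strand, with matches to ACGTG or GCGTG on either strand in capitals. Those letters are the core of the element that hypoxia-inducible factors bind, and the motif was picked after the levels had been seen.
Gnmt, chr17:46729116-46729415: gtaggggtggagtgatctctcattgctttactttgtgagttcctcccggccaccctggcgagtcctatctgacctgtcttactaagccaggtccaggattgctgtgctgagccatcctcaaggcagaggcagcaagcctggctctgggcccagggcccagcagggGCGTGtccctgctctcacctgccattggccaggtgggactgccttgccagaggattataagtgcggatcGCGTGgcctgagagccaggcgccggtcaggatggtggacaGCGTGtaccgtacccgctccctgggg
Ahcy, chr2:155074448-155074747: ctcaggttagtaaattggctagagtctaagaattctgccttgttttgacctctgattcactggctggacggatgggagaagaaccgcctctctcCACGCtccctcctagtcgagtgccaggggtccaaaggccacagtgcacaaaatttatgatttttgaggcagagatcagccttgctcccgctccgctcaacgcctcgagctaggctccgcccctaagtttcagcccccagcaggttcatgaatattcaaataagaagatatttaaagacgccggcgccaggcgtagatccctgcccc
Cbs, chr17:31637156-31637455: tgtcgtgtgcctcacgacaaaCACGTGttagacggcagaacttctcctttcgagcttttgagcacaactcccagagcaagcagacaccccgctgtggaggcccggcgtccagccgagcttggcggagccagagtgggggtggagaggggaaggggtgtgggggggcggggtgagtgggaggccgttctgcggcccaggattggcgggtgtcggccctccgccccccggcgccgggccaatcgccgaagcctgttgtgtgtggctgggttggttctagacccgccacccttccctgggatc
Gnmt held GCGTG at 3 places, Ahcy held it at 1 place on the opposite strand, and Cbs held ACGTG on both strands at 1 palindromic place. Of all 32851 promoters of this length, 43.8% held ACGTG or GCGTG, 19.6% the first and 32.4% the second. Promoters were listed for 8 of the 9 genes, all but Mat1a, and 7 of the 8 held a match, Mtr being the exception, so Mat2a, Mat2b, Shmt1 and Shmt2 held one as well.

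The rest of the pathway was followed in 9 lists of 77 other genes, of which 72 were tested. EdgeR called 0 of them higher and 0 lower in AXL KO, with 2 at an unadjusted p under 0.05, DESeq2 called 0 and limma-voom 0. EdgeR did not call Axl either, at a log2 difference of −3.33, so its 0 calls do not show that the pathway was unchanged. Of the 72, 33 had positive and 39 negative log2 differences, with a median of −0.04 beside −0.0019 over all genes tested. Without WT replicate 2 the median turned to 0.04, beside 0.02 over all genes. AXL KO was above WT without overlap for 9 and below it for 12, where 14.7% and 14.5% of all genes tested were. WT replicate 2 was the highest library for 32 of the 72 (44.4%) and the lowest for 25 (34.7%), as it was for 34.6% and 35.8% of all genes tested.

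Among genes that spend SAM, Hnmt had the smallest p of all 72. Hnmt, which encodes histamine N-methyltransferase, was at 10.1 and 9.72 CPM in AXL KO, against 4.96 and 1.41 CPM in WT. Its groups did not overlap, and its log2 difference of 1.63 (SE 0.61), or 0.998 without WT replicate 2, had an unadjusted p of 0.043 in edgeR and did not pass adjustment over all genes. As3mt, an arsenic methyltransferase gene, and Tpmt, a thiopurine methyltransferase gene, had log2 differences of −0.52 and 0.31, and As3mt was at −0.0042 without WT replicate 2. The list of small-molecule methyltransferases had 5 of 8 positive and a median of 0.03, with Inmt under the filter. Of 7 DNA and RNA methyltransferase and SAM-sensing genes, 5 had AXL KO below WT without overlap, where 14.5% of all genes tested did. The list median was −0.18, and ran from −0.35 to −0.08 with 1 library left out. Among them Dnmt3a, a de novo DNA methyltransferase gene, was at 64.8 and 82.5 CPM in AXL KO, against 99.8 and 96.6 CPM in WT, and the log2 differences of Dnmt3b, Mettl14 and Dnmt1 were −0.82, −0.25 and −0.18, with Dnmt3b at −0.18 and Mettl14 at −0.11 without WT replicate 2. In AXL KO replicate 2 against WT replicate 1, the nearest pair, Dnmt3b was at 1.77 against 1.78 CPM and Mettl14 at 31.6 against 32.2 CPM. Dnmt1 was at 163 against 167 CPM in that pair. These 3 gaps were narrower than the spread within the AXL KO pair, in which Dnmt1 was at 132 and 163 CPM. None of the list passed. The 4 genes of S-adenosylhomocysteine and adenosine clearing were all negative, with a median of −0.19 and Ahcyl1, Ada, Ahcyl2 and Adk at −0.31, −0.27, −0.11 and −0.04. Without WT replicate 2 that median was 0.01, with Ahcyl1 at −0.04, Ada at 0.29, Ahcyl2 at −0.38 and Adk at 0.07.

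Transsulfuration and glutathione genes had 6 negative of 8 and a median of −0.38. Csad, which encodes cysteine sulfinic acid decarboxylase of taurine synthesis, was at 131 and 121 CPM in AXL KO, against 157 and 209 CPM in WT, with an unadjusted p of 0.048 in edgeR that did not pass adjustment. Its log2 difference was −0.54, and −0.32 without WT replicate 2. Gclc and Gclm, the genes of the catalytic and modifier subunits of glutamate-cysteine ligase, were at 34.3 and 35.7 CPM and at 79.2 and 80.7 CPM in AXL KO, against 52.1 and 42.2 CPM and 106 and 94.3 CPM in WT. Mpst, a mercaptopyruvate sulfurtransferase gene, had a log2 difference of −0.59, and −0.15 without WT replicate 2. Of the 8 genes, these 4 had both AXL KO libraries below both WT libraries, where 14.5% of all genes tested did. Without overlap, leaving out 1 library could not turn a sign, and the 4 differences then ran from −0.92 to −0.15. Cth, whose product follows that of Cbs in the same pathway, had both AXL KO libraries above both WT libraries, as 14.7% of all genes tested did. It was at 1.28 and 0.990 CPM in AXL KO, against 0.748 and 0.628 CPM in WT. The list median was −0.06 without WT replicate 2.

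In mitochondrial folate and serine synthesis, WT replicate 2 was the highest library for 4 and the lowest for 4 of 11 tested mitochondrial genes, and the highest for 3 of 3 serine genes, beside 34.6% and 35.8% over all genes tested. Sardh, which encodes the sarcosine dehydrogenase that oxidises the product of GNMT, was at 28.1 and 32.96 CPM in AXL KO, against 23.6 and 134 CPM in WT. Its log2 difference was −1.37 with all libraries and 0.37 without WT replicate 2. Psat1, the phosphoserine aminotransferase gene of serine synthesis, was at 53.4 and 88.5 CPM in AXL KO, against 73.1 and 184 CPM in WT, and its difference was −0.85 with all libraries and −0.04 without WT replicate 2. Mthfd1l, which encodes the mitochondrial enzyme that releases formate, was at 5.93 and 9.12 CPM in AXL KO, against 7.53 and 22.5 CPM in WT, with a difference of −0.99 with all libraries and 0.0047 without WT replicate 2. Aldh1l2, a mitochondrial formyltetrahydrofolate dehydrogenase gene, Gcsh, of the glycine cleavage system, Phgdh, the first gene of serine synthesis, and Psph, its last, had log2 differences of −0.94, 0.19, −0.38 and 0.07. Without WT replicate 2 these were −0.18, 0.12, 0.19 and 0.28. In the mitochondrial list 4 of 11 tested genes were positive (median −0.07, and 0.0047 without WT replicate 2), with Dmgdh at 0 counts in every library, and in the serine list 1 of 3 was (median −0.38, and 0.19 without WT replicate 2).

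Of 13 tested cytosolic folate genes 8 were positive, with a median of 0.13 and Slc46a1, the proton-coupled folate transporter gene, Mthfd1, Ggh and Fpgs at 0.49, 0.14, 0.22 and −0.15. Without WT replicate 2, Slc46a1 was at 0.13 and Mthfd1 at 0.07. Of 5 tested remethylation and cobalamin genes 4 were positive, with a median of 0.08 and the cobalamin-processing gene Mmachc, the transcobalamin gene Tcn2 and Mmadhc at 0.30, 0.46 and −0.29, against 0.21, 0.11 and −0.01 without WT replicate 2. Of 13 polyamine and methionine salvage genes 7 were positive, with a median of 0.01 that turned to −0.01 when libraries were scaled by totals alone and to −0.02 without WT replicate 2, and the spermine oxidase gene Smox, Apip, Sat1 and Adi1 were at −0.55, −0.33, −0.29 and 0.23. Without WT replicate 2 these 4 were at −0.27, −0.07, 0.05 and −0.07. Bhmt and Ftcd had 0 counts in every library, and Bhmt2 was at 0.267 and 0.210 CPM in AXL KO, against 0 and 0.157 CPM in WT.

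**Figure D4:**
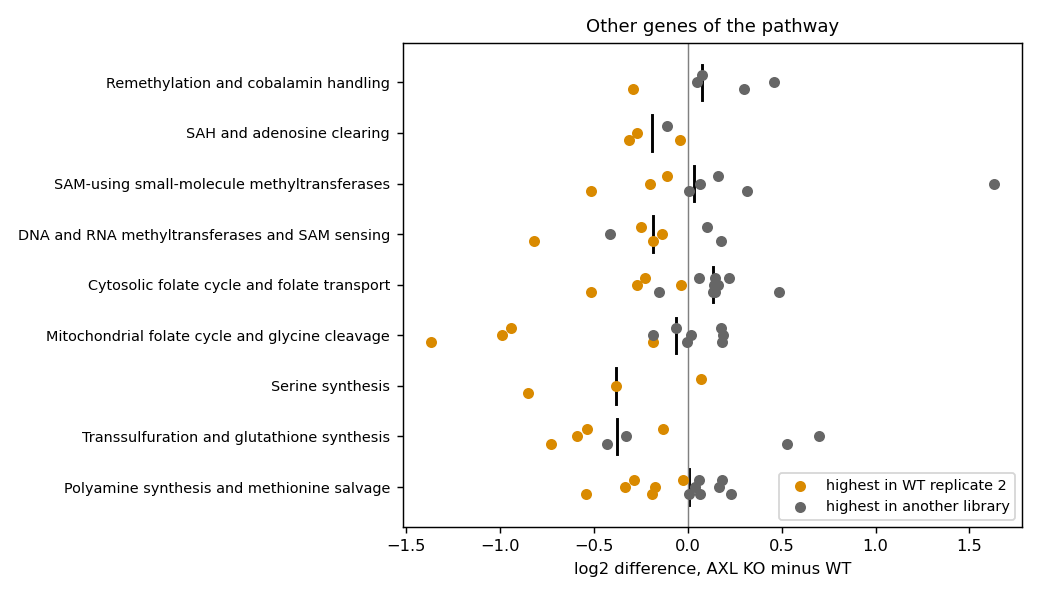
Log2 difference, AXL KO minus WT, of the 72 tested genes of 9 pathway lists. Each point is a gene, orange where WT replicate 2 was its highest library (32 genes), and the black bar is the list median, which runs from −0.38 to 0.13.

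Markers of liver, where Mat1a is known to be high, were mostly at or near 0. Of 12 hepatocyte markers, 5 had 0 counts in every library (Apoa2, Cps1, Fga, Ambp and Apoc3), and 11 stayed under 1 CPM in every library. Alb was at 0 and 0.0900 CPM in AXL KO, against 0.0935 and 0.157 CPM in WT, Tat at 0.160 and 0 CPM against 0.0468 and 0.576 CPM, and Fgb at 0 and 0.570 CPM against 0 and 0 CPM. Ahsg, the fetuin A gene, was the exception, with 10.5 and 5.49 CPM in AXL KO, against 1.54 and 3.298 CPM in WT, and it made most of the list's sum of 10.7 and 6.27 CPM in AXL KO, against 1.73 and 4.08 CPM in WT. Of 8 pancreatic acinar markers 6 had 0 counts in every library, and the list summed to between 1.17 and 1.78 CPM. Of 6 skeletal muscle markers 2, Myh4 and Tnnt3, had 0 counts in every library, and the list summed to 16.6 and 22.7 CPM in AXL KO, against 23.0 and 7.23 CPM in WT.

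Fat markers gave a mixed picture beside Mat1a. The 5 brown adipocyte markers summed to 29.3 and 20.5 CPM in AXL KO, against 14.2 and 9.21 CPM in WT, with 0 of the 5 at 0 counts in either AXL KO library and 1 and 2 at 0 in WT replicates 1 and 2. Cox7a1, a cytochrome oxidase subunit gene, made the largest part, with 17.8 and 13.7 CPM in AXL KO, against 10.8 and 3.82 CPM in WT. Ppara, a lipid-sensing nuclear receptor gene, overlapped between the groups, with 2.30 and 3.72 CPM in AXL KO, against 2.95 and 4.03 CPM in WT. Of the others Ucp1, the uncoupling protein gene, was at 5.88 and 0.960 CPM in AXL KO, against 0.0935 and 0 CPM in WT, and Cidea at 2.83 and 2.07 CPM against 0.281 and 1.36 CPM. The 8 adipocyte markers, none at 0, summed to 168 and 187 CPM in AXL KO, against 113 and 207 CPM in WT, so their groups overlapped. The 7 milk genes summed to 15081 and 24974 CPM in AXL KO, against 28970 and 18994 CPM in WT, and the 8 immune markers to 484 and 632 CPM against 530 and 374 CPM, and both overlapped. The 8 luminal markers summed to 23494 and 23497 CPM in AXL KO, against 14793 and 16868 CPM in WT. This came through Erbb2, counted on the mouse gene, at 19776 and 19975 CPM against 10968 and 12594 CPM. How much of the Erbb2 count came from the Neu oncogene of the model was not measured. The other 7 luminal markers together were lower, at 3717 and 3521 CPM in AXL KO, against 3826 and 4273 CPM in WT. The brown adipocyte sum, the hepatocyte sum through Ahsg, the luminal sum through Erbb2 and the interferon response sum, at 1431 and 1628 CPM in AXL KO against 1091 and 72.3 CPM in WT, were thus higher in both AXL KO libraries, as Mat1a was. Within the WT pair the brown adipocyte and interferon response sums were higher in replicate 1, whereas Mat1a was higher in replicate 2. The hepatocyte and luminal sums were higher in WT replicate 2, as Mat1a was. The part of these sums in the Mat1a level was not tested.

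Profiles most like those of Mat1a and Mat2a were sought among 12341 other tested genes by the root mean square difference of log2 CPM, each centred on its mean over the 4 libraries. The 5 nearest to Mat1a were Nat8f2, an N-acetyltransferase family gene, at 0.66, the protocadherin gene Pcdhb12 at 0.79, Cidea at 0.92, the histamine receptor gene Hrh3 at 0.94 and, farther off, the hyaluronan-binding protein gene Cemip. Nat8f2 was at 23.1 and 22.8 CPM in AXL KO, against 0.561 and 7.59 CPM in WT. Its order within the WT pair is part of the profile it was picked on, so it is no separate point of likeness. Nat8f2 and Pcdhb12 belong to multigene families, and how far their counts are shared with relatives was not measured. The 5 nearest to Mat2a, namely Fbxo10, Mllt6, Prkcd, Nedd9 and Spryd4, were at 0.01 to 0.03. The distance is not scaled to a gene's range over the libraries, which was 46.8-fold for Mat1a and 1.31-fold for Mat2a. The closer neighbours of Mat2a therefore do not set the Mat1a profile apart.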

How the data were processed

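Per the labels' protocols, tumour RNA was isolated with Trizol and RNeasy columns, followed by Illumina library preparation. The deposited files hold 1 raw count per Ensembl gene and library. Per the submitters' processing notes, the tools were DESeq2 1.4.5, HTSeq 0.5.3, TopHat2 2.0.10 and CASAVA 1.8 on GRCm38, with no roles given. Neither annotation release nor strand setting was stated. The 5 summary lines that name no gene stayed out. Of all lines summed, reads outside genes took 5.27% to 8.11%, ambiguous reads 0.635% to 1.85% and non-unique alignments 23.2% to 28.1%. Symbols, positions and exon lengths came from GENCODE M21 (GRCm38), which matched 36429 of 38293 rows. Every pair of libraries differed beyond sampling noise, with a chi-square per degree of freedom of at least 30.3.

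EdgeR 4.0.16 in R 4.3.3 (filterByExpr by group, TMM, glmQLFit with legacy=FALSE, glmQLFTest) gave log2 differences. Standard errors are the difference over the root of F. The common dispersion was 0.0961, and the script was tested on simulated data. Copies were found with BLAST 2.17.0 at 90% identity over 200 bases. RPKM divides CPM by the union of exons. The members and lists were chosen with earlier results of these data known. Named were all 9 members, up to 4 genes by smallest p in each pathway list, up to 4 markers by highest mean in marker lists that differed, and the 5 nearest profiles (log2 CPM with a prior count of 2, mean CPM of at least 1). Most marker lists are given by their sums, with only some of the markers this rule names. Of the pathway genes that this rule names, 2 are not reported here. Cth, Bhmt, Bhmt2, Ftcd, Dmgdh, Inmt and the overlapping genes were named outside that rule, after their values were seen. Alternatives were DESeq2 size factors, library totals, other low-count filters, DESeq2 1.42.0, limma-voom 3.58.1, a prior count of 2 in the fit, the replicate block, each library left out, the longest transcript as length and 0.5 added counts.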

Additional observations from a re-analysis of the deposited data

How the results depend on the processing

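DESeq2 called 16 genes over all genes where edgeR called 0, and leaving out 1 library gave 0 to 246 edgeR calls, the 246 without WT replicate 1. With 1 library left out, the only pathway gene called was Sardh, without WT replicate 1 (log2 difference −2.13). That fit leaves WT replicate 2 as the only WT library, so nothing is read from its calls. Sardh was at 134 CPM in WT replicate 2 and 23.6 CPM in WT replicate 1, and its difference was 0.37 without WT replicate 2. The Mat1a log2 difference of 3.70 ran from 2.91 to 5.32 with 1 library left out and from 3.38 to 3.97 under the other alternatives. The Mat1a to Mat2a difference of 4.28 ran from 2.88 to 5.68 with 1 library left out, and was 4.09 with 0.5 counts added. The exon length cancels in this difference, so taking the longest transcript as length could not change it. With the replicate block edgeR called 0 genes and Mat1a was at 3.78. The replicate numbers are shared only as numbers: the deviations of same-numbered libraries correlated at −0.04. Of 32 leave-one-out values of the 8 tested members 6 changed sign, for Mat2a, Mat2b, Gnmt, Ahcy and Shmt1, and of 63 other values 1 did, for Mat2b with library totals. The causes were not tested. With 2 libraries a group, Cbs, Gnmt and the WT level of Mat1a are limited by depth: 3 counts, the limit that a count of 0 allows, came to between 0.0900 and 0.160 CPM.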
